A study of Mus musculus with 8 samples.

Results

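Genes of the adherens junction and the desmosome were examined in mouse colon organoids, which are epithelial structures grown from colon crypts in Matrigel. They were chosen by name as E-cadherin with its catenins (Cdh1, Ctnnb1, Ctnna1 and Ctnnd1) and as desmosomal cadherins with plaque proteins (Dsg2, Dsc2, Dsp, Jup, Pkp2 and Pkp3). These are 10 of the 29234 gene symbols in the count table. Each symbol was found once, and all 10 passed the filter on low counts. The organoids were of WT genotype, and per the study came from crypts of young adult male C57BL/6N mice. One condition, FS_DSS, received filtered fecal supernatant of mice that had been given dextran sodium sulfate, which damages the colon lining, at 4 mg/mL. The other, FS_CTR, received the same dose of supernatant from healthy mice, and the labels give a time of 5 days for both. The study describes 2 additions of supernatant between seeding and analysis, and names 5 days of treatment where it prepared conditioned medium. From which step the labelled time of the RNA samples counts is not given in the sources used here. RNA of 4 samples per condition, numbered 1 to 4, was made into stranded libraries. The fecal pellets of each condition were pooled, and neither labels nor methods tell whether the samples of a condition were separate cultures or animals. The p-values thus cover the spread among these libraries alone, and that spread may be technical.

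Counts assigned to genes came to between 18968416 and 27035243 per library. The 13 mitochondrially encoded protein genes took between 2.83% and 6.35% of counts in FS_DSS libraries, against 5.10%, 6.98%, 38.7% and 33.3% in FS_CTR replicates 1 to 4, so that FS_CTR replicates 3 and 4 stood apart. Levels are therefore given as CPM after TMM scaling, which are counts set to a common library size and composition, and values without those libraries are given for the members and for each named junction gene that then lost its call. The 8 epithelial markers summed to between 14295 and 16194 CPM under FS_DSS and to between 13283 and 18768 CPM under FS_CTR. Krt8, a keratin of simple epithelium, was highest among them, while Epcam, a defining epithelial marker, lay between 4.95 and 29.1 CPM over all libraries. Fibroblast markers summed to between 6.31 and 9.04 CPM under FS_DSS and to between 4.95 and 6.47 CPM under FS_CTR. Squamous markers summed to between 185 and 229 CPM under FS_DSS and to between 146 and 224 CPM under FS_CTR, with Pkp1 as the largest contributor and Trp63 at 0 in all libraries.

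Adherens junctions join neighbouring epithelial cells through E-cadherin, whose extracellular part binds E-cadherin on the next cell. Inside the cell, beta-catenin and p120-catenin bind its tail, and alpha-catenin links beta-catenin to actin filaments. Desmosomes are built on the same plan from desmogleins and desmocollins, which plakoglobin, plakophilins and desmoplakin tie to keratin filaments. Beta-catenin also acts in the nucleus as the transcriptional partner of TCF factors in the Wnt pathway, which maintains the stem cells of the colon crypt.

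Promoter windows of 250 bases before to 50 bases after an annotated start were matched in a RefSeq table (build GRCm38.p6) for 4 of the 10 genes, Ctnnb1, Ctnnd1, Jup and Dsp, and gave 6 windows. The windows were searched on both strands for an E-box of the letters CACCTG, which is bound by repressors of E-cadherin such as SNAI1, for a GC box GGGCGG, and for the core of the Grainyhead motif, AACCGG. Among 32851 windows of the table, 20.2% held the E-box, 35.7% the GC box and 6.83% the Grainyhead core. One window for each gene is shown, since these are 2 adherens junction genes whose counts were higher under FS_DSS at an unadjusted p under 0.05 and 2 desmosomal plaque genes whose counts did not pass that threshold. They lie at chr9:120933150-120933449 on the + strand, chr2:84658928-84659227 on the - strand, chr11:100397741-100398040 on the - strand and chr13:38151044-38151343 on the + strand, each written 5′ to 3′ along the gene, with matches to the motifs in capitals.
Ctnnb1: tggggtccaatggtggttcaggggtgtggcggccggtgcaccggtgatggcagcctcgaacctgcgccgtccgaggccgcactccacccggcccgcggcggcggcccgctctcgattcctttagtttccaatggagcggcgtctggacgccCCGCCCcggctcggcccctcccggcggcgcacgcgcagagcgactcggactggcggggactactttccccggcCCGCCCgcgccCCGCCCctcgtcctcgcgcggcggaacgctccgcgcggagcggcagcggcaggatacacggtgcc
Ctnnd1: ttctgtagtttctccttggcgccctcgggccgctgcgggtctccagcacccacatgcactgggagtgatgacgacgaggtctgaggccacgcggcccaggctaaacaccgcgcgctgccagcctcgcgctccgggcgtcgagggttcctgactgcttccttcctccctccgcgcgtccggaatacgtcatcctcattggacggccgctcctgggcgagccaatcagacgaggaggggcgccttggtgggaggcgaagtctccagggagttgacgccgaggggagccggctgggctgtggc
Jup: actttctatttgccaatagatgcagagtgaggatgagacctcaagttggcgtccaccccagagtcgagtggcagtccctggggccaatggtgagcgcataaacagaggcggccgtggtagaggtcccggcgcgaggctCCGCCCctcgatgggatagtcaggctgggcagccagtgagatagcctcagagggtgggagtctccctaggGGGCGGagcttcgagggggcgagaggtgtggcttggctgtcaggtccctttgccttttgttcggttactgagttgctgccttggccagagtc
Dsp: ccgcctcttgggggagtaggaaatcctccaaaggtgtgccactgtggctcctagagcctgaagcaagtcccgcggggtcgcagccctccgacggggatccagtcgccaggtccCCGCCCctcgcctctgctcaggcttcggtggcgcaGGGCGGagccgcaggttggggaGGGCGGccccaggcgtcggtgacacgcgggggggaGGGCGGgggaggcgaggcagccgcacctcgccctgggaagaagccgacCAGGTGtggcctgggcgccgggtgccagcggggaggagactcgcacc
The Ctnnb1 window held 3 GC boxes, the Jup window 2, and the Dsp window 4 GC boxes and 1 E-box, so GC boxes were found in windows of both junctions. None of the letters searched stood in the Ctnnd1 window, and no match overlapped another. G and C made up 75.3% of the bases for Ctnnb1, 67.7% for Ctnnd1, 60.7% for Jup and 73.0% for Dsp.

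In the annotation of GRCm39, Cdh1 spans chr8:107329941-107396880, Ctnnb1 chr9:120757422-120789579, Ctnnd1 chr2:84425959-84489326, Dsp chr13:38335230-38382553, Jup chr11:100259784-100291103, Pkp2 chr16:16031144-16090586 and Pkp3 chr7:140658040-140670423. Ctnna1, Dsg2 and Dsc2 lie on chromosome 18. The count of a gene sums reads over its transcripts, so exons cannot be told apart in these values. Some exons are shared with neighbouring genes, and whether the counting used strand is not given in the sources used here. Ctnnb1 shares 765 exonic bases with Ulk4 on the opposite strand, to which 136 counts were assigned over all 8 libraries. Ctnnd1 shares 4482 exonic bases on its own strand with the gene model Gm28635, and Ctnna1 shares 138 bases with Lrrtm2 on the opposite strand, and both neighbours had 0 counts in every library.

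The 4 genes of the E-cadherin complex all had higher counts in organoids treated with FS_DSS than with FS_CTR. At an unadjusted p under 0.05 from edgeR's quasi-likelihood test all 4 passed, against 1 of the 6 desmosomal genes. Of all genes tested, 10.6% had higher counts and 13.4% lower counts at that threshold. No member passed after Benjamini-Hochberg adjustment over all genes tested. Cdh1, which encodes E-cadherin, showed the largest difference of the 10 genes. Its level was 2185, 2008, 1874 and 2057 CPM in FS_DSS replicates 1 to 4, against 1814, 1508, 1162 and 1221 CPM in FS_CTR replicates 1 to 4. Every FS_DSS library lay above every FS_CTR library, and FS_CTR replicates 3 and 4 were the lowest of the 8. The log2 fold change of Cdh1 was 0.51 (standard error 0.165, 95% interval 0.14 to 0.88), or 1.42-fold, with an unadjusted p of 0.0130 and an adjusted p of 0.123 in edgeR. Without FS_CTR replicates 3 and 4 the value for Cdh1 was 0.29 (unadjusted p of 0.0522 in edgeR), while it kept an unadjusted p under 0.05 with any single library left out.

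Ctnnb1 encodes beta-catenin, which binds the E-cadherin tail and is also the Wnt effector. Its level was 1631, 1460, 1561 and 1735 CPM in FS_DSS replicates 1 to 4, against 1505, 1197, 1080 and 1057 CPM in FS_CTR replicates 1 to 4. The groups overlapped, since FS_CTR replicate 1 lay above FS_DSS replicate 2, and the other FS_CTR libraries lay below all FS_DSS libraries. This is a log2 fold change of 0.40 (standard error 0.146, unadjusted p of 0.0225 in edgeR), or 1.32-fold. Ctnnd1 encodes p120-catenin, which holds E-cadherin at the cell surface. It had 1210, 1026, 986 and 1065 CPM in FS_DSS replicates 1 to 4, against 1001, 833, 765 and 720 CPM in FS_CTR replicates 1 to 4. Here too FS_CTR replicate 1 alone reached into the FS_DSS range, just above FS_DSS replicate 3, and the log2 fold change was 0.37 (standard error 0.135, unadjusted p of 0.0232 in edgeR).

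Ctnna1 encodes alpha-catenin, the link to actin. It showed a smaller difference with little scatter, at 722, 753, 727 and 741 CPM in FS_DSS replicates 1 to 4, against 645, 604, 587 and 672 CPM in FS_CTR replicates 1 to 4. The groups did not overlap, and the 4 FS_DSS libraries spanned a narrower range than the 4 FS_CTR libraries. Its log2 fold change was 0.23 (standard error 0.0919, unadjusted p of 0.0333 in edgeR), or 1.17-fold. It was the one member that passed the unadjusted threshold without FS_CTR replicates 3 and 4, at 0.24 (unadjusted p of 0.0324), whereas Ctnnb1 was then at 0.24 (0.116) and Ctnnd1 at 0.23 (0.126). With 1 library left out, Ctnnb1 lost its call without FS_CTR replicate 3 or 4 or FS_DSS replicate 4 (0.34 to 0.36), Ctnnd1 without FS_CTR replicate 3 or 4 or FS_DSS replicate 1 (0.31 to 0.33), and Ctnna1 without FS_CTR replicate 2 or 3 or FS_DSS replicate 2, 3 or 4 (0.20 to 0.24).

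**Figure D1:**
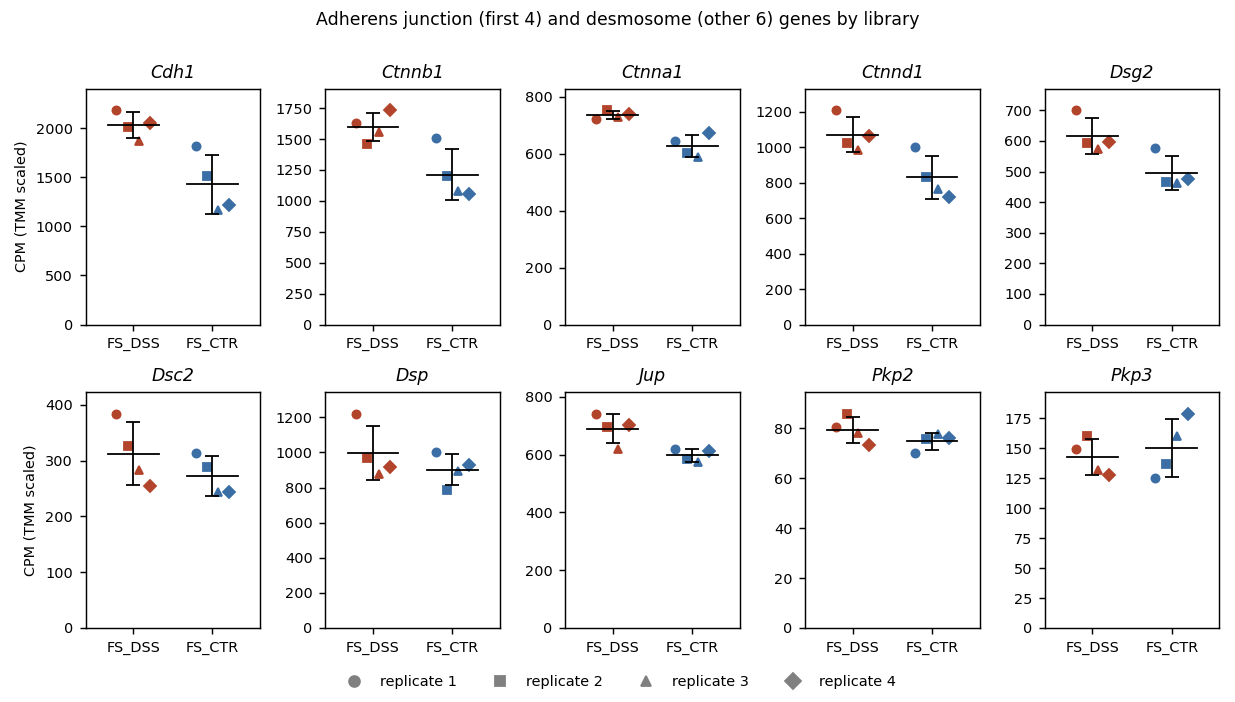
Levels of the 10 genes in CPM after TMM scaling, 1 panel a gene with the axis from 0, FS_DSS left and FS_CTR right. Points are single libraries with a marker for each replicate number, and lines with bars are means and SD (n = 4). All FS_DSS points lie above all FS_CTR points in the Cdh1 and Ctnna1 panels alone, and in the Pkp3 panel FS_CTR replicate 4 is the highest point, at 179 CPM.

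Of the desmosomal cadherins, Dsg2 alone passed the unadjusted threshold. Dsg2 encodes desmoglein-2, the desmoglein of simple epithelium. It had 701, 593, 574 and 596 CPM in FS_DSS replicates 1 to 4, against 578, 466, 464 and 476 CPM in FS_CTR replicates 1 to 4. Replicate 1 was the highest of its group in both conditions, and FS_CTR replicate 1 lay just above FS_DSS replicate 3, so that the groups overlapped. The log2 fold change of Dsg2 was 0.31 (standard error 0.116, unadjusted p of 0.0239 and adjusted p of 0.152 in edgeR). Its call was lost without FS_CTR replicate 2 (0.29), FS_CTR replicate 3 (0.28), FS_DSS replicate 1 (0.25), or FS_CTR replicates 3 and 4 together (0.24, unadjusted p of 0.113).

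Dsc2 encodes desmocollin-2, the partner of desmoglein-2 in the same junction. It had 384, 327, 283 and 255 CPM in FS_DSS replicates 1 to 4, against 314, 288, 243 and 243 CPM in FS_CTR replicates 1 to 4. In both conditions replicates 1 and 2 lay above replicates 3 and 4, and the groups overlapped. The log2 fold change was 0.20, with a 95% interval from -0.14 to 0.53 and an unadjusted p of 0.218 in edgeR. Blocked by replicate number, Dsc2 reached an unadjusted p of 0.0497 (adjusted p of 0.161) at 0.19, and without FS_CTR replicates 3 and 4 its value was 0.05. It was 0.083 without FS_DSS replicate 1.

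Among the plaque genes, Jup encodes plakoglobin, which is the close relative of beta-catenin and sits in both kinds of junction. Its level was 742, 695, 619 and 703 CPM in FS_DSS replicates 1 to 4, against 620, 583, 573 and 613 CPM in FS_CTR replicates 1 to 4. FS_DSS replicate 3 lay just below FS_CTR replicate 1, and the other 3 FS_DSS libraries lay above all FS_CTR libraries. Its log2 fold change was 0.21 (95% interval -0.011 to 0.43, unadjusted p of 0.0601 in edgeR), and 0.20 without FS_CTR replicates 3 and 4. Jup passed the unadjusted threshold in edgeR when blocked by replicate number (unadjusted p of 0.0490), in DESeq2 (0.0113), in limma-voom (0.0428), with TMM computed without the mitochondrially encoded genes (0.0464), with the trend on transcript length removed (0.0378) and without FS_DSS replicate 3 (0.0415).

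Dsp encodes desmoplakin, which anchors keratin filaments to the plaque. It had 1222, 969, 874 and 919 CPM in FS_DSS replicates 1 to 4, against 1000, 789, 892 and 928 CPM in FS_CTR replicates 1 to 4. FS_DSS replicate 1 was the highest library, and FS_DSS replicates 3 and 4 lay below the FS_CTR replicates of the same number. The log2 fold change of 0.14 had a 95% interval from -0.17 to 0.46 and an unadjusted p of 0.332 in edgeR. It was 0.031 without FS_DSS replicate 1, and 0.16 without FS_CTR replicates 3 and 4 (unadjusted p of 0.390 in edgeR).

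Pkp2 and Pkp3 encode plakophilins, which cluster desmosomal cadherins and bind desmoplakin. Pkp2 had 80.4, 86.0, 78.3 and 73.4 CPM in FS_DSS replicates 1 to 4, against 70.1, 75.7, 77.7 and 76.1 CPM in FS_CTR replicates 1 to 4. Pkp3 had 150, 160, 132 and 128 CPM in FS_DSS replicates 1 to 4, against 125, 137, 160 and 179 CPM in FS_CTR replicates 1 to 4. Both genes had overlapping groups, and the FS_CTR libraries spread more widely than the FS_DSS libraries for Pkp3. The log2 fold change of Pkp2 was 0.087 (95% interval -0.091 to 0.26, unadjusted p of 0.297 in edgeR), and 0.048 without FS_DSS replicate 2. Without FS_CTR replicates 3 and 4 Pkp2 was at 0.13 (unadjusted p of 0.213 in edgeR). Pkp3 was the one member with a negative value, -0.077 (95% interval -0.37 to 0.22, unadjusted p of 0.566 in edgeR), which became 0.12 without FS_CTR replicates 3 and 4 and 0.018 without FS_CTR replicate 4. In bulk RNA fewer cells of a type and less RNA per cell cannot be told apart for any of these genes.

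**Figure D2:**
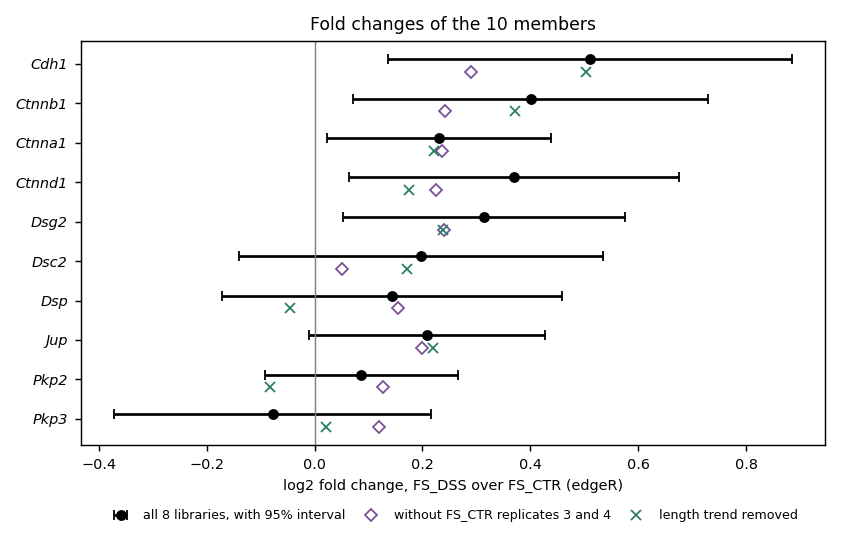
Log2 fold change of FS_DSS over FS_CTR for each gene. Filled circles with bars are the edgeR value and its approximate 95% interval over all 8 libraries, open diamonds the value without FS_CTR replicates 3 and 4, and crosses the value with the trend on transcript length removed. The intervals of Cdh1, Ctnnb1, Ctnna1, Ctnnd1 and Dsg2 lie above 0, and Cdh1 moves from 0.51 to 0.29 without the FS_CTR pair.

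Set against all 12729 genes tested, the counts of members read as follows. At an unadjusted p under 0.05, 5 of the 10 members had higher counts and 0 had lower counts, and 10.6% of all genes had higher counts and 13.4% lower counts at that threshold. At an adjusted p under 0.05, 0 members and 0% of all genes passed in either direction with edgeR, while DESeq2 called 5 members higher (adjusted p from 0.0157 for Cdh1 to 0.0493 for Dsg2), beside 5.14% of the 12478 genes to which it gave an adjusted p. At the thresholds used by the study, which add a log2 fold change of at least 0.58 in size, 0 members and 2.56% of all genes had higher counts. Groups that did not overlap, with FS_DSS above, were seen for 2 members, Cdh1 and Ctnna1, and for 7.41% of all genes. When blocked by replicate number, 7 members had higher counts at an unadjusted p under 0.05, where 14.7% of all genes did, and 0 members passed the adjusted threshold, where 0.534% did. Without FS_CTR replicates 3 and 4, 1 member passed the unadjusted threshold, Ctnna1, beside 9.42% of all genes. A share of 1 in 10 members is near that background, in a fit that has 2 libraries fewer.

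The median log2 fold change over the 10 members was 0.22, with 0.38 over the 4 adherens junction genes and 0.17 over the 6 desmosomal genes, beside -0.021 over all genes tested. Without FS_CTR replicates 3 and 4 the medians were 0.21, 0.24 and 0.14, beside 0.0040 over the same genes. The median over the members therefore held its size when those libraries were left out, and the distance between the adherens junction and desmosomal genes narrowed. With library totals in place of TMM scaling, the median of all genes moved to 0.31, and the members' median was 0.24 above it. With single libraries left out the members' median ran between 0.20 and 0.26.

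Members also differed by replicate number. Libraries of the same number in the 2 conditions deviated together from their group means and were compared as pairs. In pair 1 all 10 members had higher CPM under FS_DSS, by 0.12 (Ctnnb1) to 0.29 (Dsc2) on the log2 scale, and in pair 2 all 10 did, by 0.18 (Dsc2) to 0.41 (Cdh1). In pair 3 the differences spread from -0.28 for Pkp3 to 0.69 for Cdh1, with 8 of 10 positive, and in pair 4 from -0.48 for Pkp3 to 0.75 for Cdh1, with 7 of 10 positive. Over all genes tested, 50.2%, 48.7%, 50.4% and 48.3% had a positive difference in pairs 1 to 4. The median over members was 0.26, 0.29, 0.26 and 0.17 in pairs 1 to 4, so that pairs 3 and 4 differed from pairs 1 and 2 more in the spread among members than in their middle. Dsg2 was the most even of the 10, with differences of 0.28, 0.35, 0.31 and 0.32. Ctnnb1 was at 0.12, 0.29, 0.53 and 0.71, and Dsp at 0.29, 0.30, -0.029 and -0.013. FS_CTR replicates 3 and 4, with their high share of mitochondrially encoded counts, are the FS_CTR libraries of pairs 3 and 4. The part of that share in the spread was not tested.

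**Figure D3:**
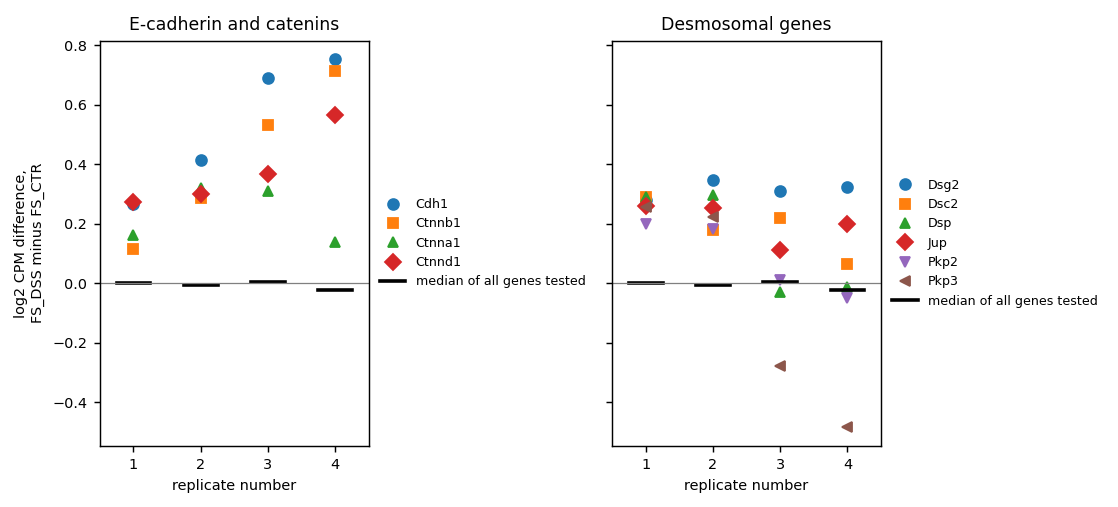
Difference in log2 CPM, FS_DSS minus FS_CTR, between libraries of the same replicate number, with E-cadherin and catenins in the left panel and desmosomal genes in the right panel. Points are genes and short black lines the median of all 12729 genes tested. All points of pairs 1 and 2 lie above 0, and those of pairs 3 and 4 range from -0.48 (Pkp3) to 0.75 (Cdh1).

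Per kilobase of the longest annotated transcript, the members ranked in nearly the same order in every library. These counts do not show which transcript was expressed, so the order between genes holds for that choice of length. Ctnnd1, with a longest transcript of 10.8 kb, had more CPM than Jup and Ctnna1 in every library before division by length. Cdh1 was first, at 454 CPM per kb under FS_DSS (419 to 489) and 319 CPM per kb under FS_CTR (260 to 406), and Ctnnb1 second, at 324 (297 to 353) and 246 (215 to 306). In each single library Cdh1 lay above Ctnnb1, although their ranges over libraries overlapped within FS_CTR. Jup and Ctnna1 followed at 166 and 164 CPM per kb under FS_DSS and at 144 and 140 CPM per kb under FS_CTR, and changed places between libraries, so they did not differ beyond their spread. Dsg2, Dsp and Ctnnd1 were at 104, 103 and 99.1 CPM per kb under FS_DSS and at 84.0, 93.7 and 76.7 CPM per kb under FS_CTR, with overlapping ranges too. Dsc2 was at 64.9 CPM per kb under FS_DSS and 56.5 CPM per kb under FS_CTR, and Pkp3 at 47.3 and 49.9. Dsc2 lay above Pkp3 in all 4 FS_DSS libraries, and in FS_CTR replicates 3 and 4 Pkp3 lay above Dsc2. Pkp2 was last in every library, at 9.00 CPM per kb under FS_DSS and 8.47 CPM per kb under FS_CTR. Among the desmosomal cadherins Dsg2 thus exceeded Dsc2, and of the plakophilins Pkp3 exceeded Pkp2, in all 8 libraries.

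Ratios of raw counts within a library, which no scaling can change, were compared to test whether one member differed between conditions more than another. For 6 ratios an exact two-sided permutation test over 70 assignments was used, for which the smallest possible p is 0.0286. The log2 ratio of Dsp to Cdh1 was -0.84, -1.05, -1.10 and -1.16 in FS_DSS replicates 1 to 4, against -0.86, -0.93, -0.38 and -0.40 in FS_CTR replicates 1 to 4. The ratio was high in FS_CTR replicates 3 and 4, and the other 6 libraries lay together. The difference in means was -0.40 (exact p = 0.0857, adjusted p = 0.214 over the 6 ratios). For Ctnnd1 to Cdh1 the difference was -0.15 (exact p = 0.0857), for Ctnna1 to Cdh1 -0.30 (exact p = 0.143) and for Jup to Ctnnb1 -0.21 (exact p = 0.114), all with an adjusted p of 0.214. Pkp2 to Pkp3 differed by 0.16 (exact p = 0.229, adjusted p = 0.274) and Dsg2 to Dsc2 by 0.13 (exact p = 0.371, adjusted p = 0.371). The ratio of Ctnna1 to Cdh1 was lower under FS_DSS in all 4 pairs of the same replicate number, with differences of -0.11, -0.094, -0.38 and -0.61 in pairs 1 to 4 (exact p = 0.125 over exchanges within pairs, the smallest that 4 pairs allow). In all 6 ratios the groups overlapped, so no member was shown to differ between conditions more than its partner, and the higher calls among adherens junction genes than among desmosomal genes are not a tested difference. Without FS_CTR replicate 1 the ratio of Ctnna1 to Cdh1 differed by -0.41 (exact p = 0.0286, the smallest that those 7 libraries allow).

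**Figure D4:**
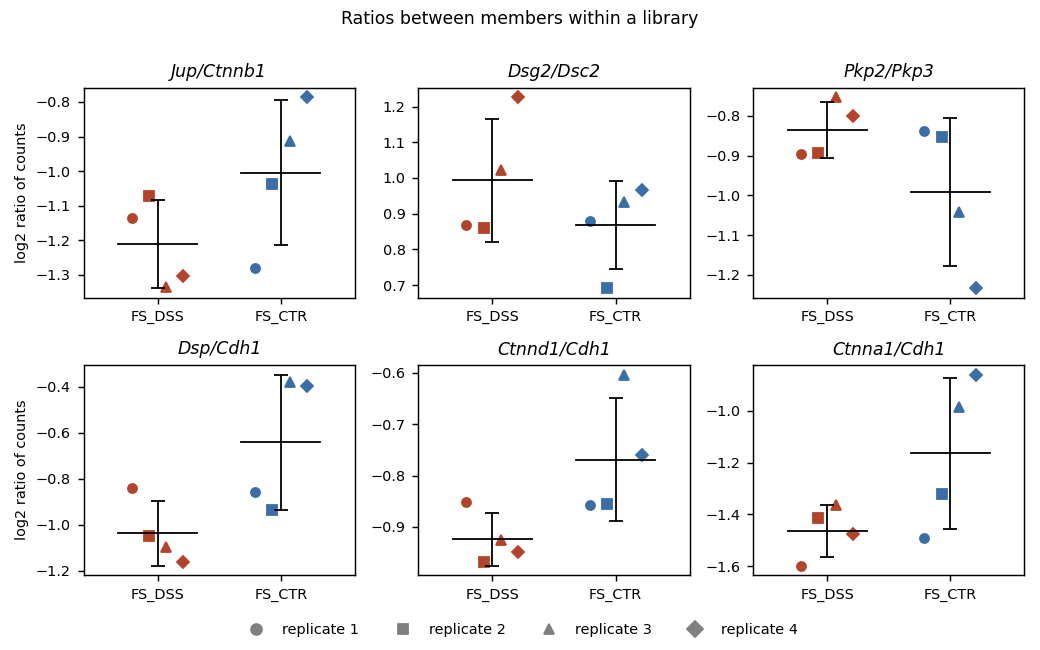
Log2 ratios of raw counts between members of the same library, FS_DSS left and FS_CTR right, with markers for replicate numbers and lines with bars for means and SD (n = 4); the axes do not start at 0. FS_CTR replicates 3 and 4 lie above the other 6 libraries for 4 of the 6 ratios, Dsp/Cdh1, Ctnna1/Cdh1, Ctnnd1/Cdh1 and Jup/Ctnnb1, and the groups overlap in every panel.

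Levels of the 4 adherens junction genes moved together over the 8 libraries, as a description over libraries that share their depth and scaling. Pearson correlations of log2 CPM lay between 0.69 and 0.97 for the 6 pairs among them. For the 15 pairs among desmosomal genes they lay between -0.33 and 0.89, and for the 24 pairs across the junctions between -0.67 (Ctnnb1 and Pkp3) and 0.96 (Ctnnd1 and Dsg2). Dsg2 correlated with Ctnnd1 and Cdh1 (0.92) more closely than with Dsc2 (0.76). Pkp3 had a negative correlation with 7 of the other 9 members, and Pkp2 correlated with it at 0.54. Among 8781 genes of at least 10 CPM outside the members, the patterns most like that of Cdh1 were those of Tmcc3 (Pearson correlation 0.998 over 8 libraries), Mtf1, Prdm2, Jak1 and Furin (0.990). Most like Dsp were Erbb3 (0.971), Itch, Plxna2, Ubn2 and Casz1 (0.954).

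Fold changes over all genes went with transcript length, at a Spearman correlation of 0.335 across 12460 genes with a known length, or 0.152 without FS_CTR replicates 3 and 4. The median log2 fold change was -0.22, -0.061, 0.022 and 0.12 in 4 groups of these genes of like number, ordered from short to long. The longest transcripts of 8 of the 10 members were above the median of 4.32 kb, from 4.47 kb for Cdh1 to 10.8 kb for Ctnnd1, and Pkp3 (3.01 kb) and Jup (4.14 kb) were below it. With the trend on length removed from each library, 5 members had higher counts at an unadjusted p under 0.05, where 10.9% of all genes did. They were Cdh1 (0.50), Ctnnb1 (0.37), Ctnna1 (0.22), Dsg2 (0.24) and Jup (0.22). Ctnnd1, of the longest transcript, was then at 0.17 (unadjusted p of 0.0597 in edgeR), and the long genes Dsp and Pkp2 turned to -0.046 and -0.082.

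Other genes of the junctions were described from lists written with earlier results of these data known, and edgeR without the block left 0 of their genes past an adjusted p under 0.05. Over all genes tested, 10.6% were higher and 13.4% lower at the unadjusted threshold, and 7.41% were higher in groups without overlap. With the block 14.7% were higher, and without FS_CTR replicates 3 and 4 9.42% were. Over all 8 libraries the counts of other desmosomal genes, keratins, epithelial identity factors and targets of beta-catenin lay near those shares. Of 13 other desmosomal genes 8 were tested, of which 1 was higher and 0 were lower at the unadjusted threshold, with a median log2 fold change of 0.15. The higher gene was Dsg3, a desmoglein of stratified epithelium, with 13.9, 12.8, 8.77 and 9.07 CPM in FS_DSS replicates 1 to 4, against 6.28, 4.37, 5.76 and 5.08 CPM in FS_CTR replicates 1 to 4. The groups did not overlap (1.05, unadjusted p of 5.49e-04 in edgeR), at a level far under that of Dsg2. Of other squamous markers Trp63 was at 0 and Krt14 at most at 5.43 CPM. Krt6a lay between 53.0 and 78.3 CPM and Pkp1 between 81.3 and 141 CPM. With the block 3 of the 8 other desmosomal genes were higher, and 3 without FS_CTR replicates 3 and 4. Of 10 other cadherins 3 were tested and 2 were higher. Cdh2, which encodes N-cadherin, averaged 1.81 ± 1.19 CPM under FS_DSS and 0.417 ± 0.220 CPM under FS_CTR (SD, n = 4 each), with a log2 fold change of 2.10 (unadjusted p of 0.00582 in edgeR). Its level was at most 3.23 CPM in any library, and Cdh13 (0.51) was the other, at 0.22 without FS_CTR replicates 3 and 4 (unadjusted p of 0.0957).

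Nectins form a second adhesion system of the adherens junction, and afadin ties them to actin. Listed together with Pvr, a nectin-like gene, 4 of these 6 genes were higher and 0 lower, with a median of 0.31. These were Pvrl4 (nectin-4, 0.76), Pvr (0.43), Pvrl2 (nectin-2, 0.32) and Mllt4 (afadin, 0.31), all 4 with groups that did not overlap, and 4 were higher without FS_CTR replicates 3 and 4. Mllt4 was at 0.13 with the trend on length removed (unadjusted p of 0.165 in edgeR). Blocked by replicate number, Pvr passed the adjusted threshold (adjusted p of 0.0478 in edgeR). Of 17 tested linkers between junction and actin, 6 were higher and 0 lower, with a median of 0.21. They included Ajuba (0.65), a LIM protein at alpha-catenin, Lmo7 (0.59), which binds afadin, Actn1 (0.64), an actin crosslinker, and Vcl (0.44), which encodes vinculin. Vinculin lay at 0.21 without FS_CTR replicates 3 and 4 (unadjusted p of 0.0641), and 4 of the linkers were then higher. Of 13 tested keratins, the filaments that desmosomes hold, 2 were higher, Krt80 (0.84) and Krt23 (0.48), and 1 was lower, Krt4 (-0.63), with a median of 0.091, and 2 were lower with the block. Without FS_CTR replicates 3 and 4, 4 keratins were higher and 0 lower, with a median of 0.40, and Krt4 was at -0.66 (unadjusted p of 0.0641). With the trend on length removed Krt4 was at -0.45 (0.127). Krt8, the most abundant keratin, was at 0.11 (unadjusted p of 0.533 in edgeR).

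Of 8 transcription factors that repress E-cadherin, 6 had at most 13 counts in any library and did not pass the filter, namely Snai1, Snai2, Zeb1, Zeb2, Twist1 and Twist2. The other 2 were tested. Tcf3 had 86.9, 90.4, 90.8 and 85.0 CPM in FS_DSS replicates 1 to 4, against 102, 97.8, 95.9 and 92.4 CPM in FS_CTR replicates 1 to 4. Every FS_DSS library lay below every FS_CTR library for Tcf3, at a log2 fold change of -0.14 (unadjusted p of 0.0818 in edgeR). Tcf4 lay between 18.5 and 24.8 CPM, at -0.13 (unadjusted p of 0.284). Of 14 factors of epithelial identity, 1 was higher, Grhl3 (0.41), a Grainyhead factor, and 2 were lower, Cdx1 (-0.66) and Cdx2 (-0.29), homeobox factors of the intestine. With the block 3 were higher and 3 lower, and Cdx1 passed the adjusted threshold (adjusted p of 0.0397 in edgeR), while Cdx2 turned to 0.071 with library totals alone as the scaling. Grhl3 was at 0.27 (unadjusted p of 0.243) and Cdx2 at -0.19 (0.141) without FS_CTR replicates 3 and 4. With the trend on length removed, Cdx1 was at -0.48 (0.0583) and Cdx2 at -0.12 (0.245). Of 16 tested genes of cadherin shedding and turnover, 4 were higher and 1 lower, with a median of 0.18. Egfr, a receptor kinase that phosphorylates junction proteins, had 312, 280, 285 and 342 CPM in FS_DSS replicates 1 to 4, against 211, 166, 122 and 141 CPM in FS_CTR replicates 1 to 4. The groups were well apart, with a log2 fold change of 0.93 (unadjusted p of 3.31e-04 in edgeR, and adjusted p of 0.0478 once blocked). Mmp14 (0.62), Adam10 (0.26), a protease that cuts E-cadherin, and Src (0.24) were higher. Mmp7 (-1.78), a matrix protease listed with Adam10 for cadherin shedding, was lower, and its groups overlapped. It had 68.8, 46.8, 17.7 and 12.7 CPM in FS_CTR replicates 1 to 4, against 15.7, 10.2, 11.6 and 5.26 CPM in FS_DSS replicates 1 to 4. Adam10 was at 0.16 without FS_CTR replicates 3 and 4 (unadjusted p of 0.163).

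Beta-catenin itself is degraded by a destruction complex, and 3 of its 9 genes had higher counts and 0 lower, with a median of 0.12. These were Gsk3b (0.29) and Fbxw11 (0.44), a kinase and a ubiquitin ligase subunit that act on beta-catenin, and Apc2 (1.77), at most 2.10 CPM in any library. Gsk3b was at 0.24 without FS_CTR replicates 3 and 4 (unadjusted p of 0.0541). With the trend on length removed the median of the complex was 0.015, and Gsk3b was at 0.13 (0.0695). Of 6 tested nuclear partners, 0 were higher and 1 lower, Tcf7l1 (-1.16, at most 4.12 CPM in any library), and 2 were lower with the block. Of 15 targets of beta-catenin, with a median of 0.028, 2 were higher, Cd44 (0.71) and Myc (0.52). Lower were 3, Tnfrsf19 (-1.75, at most 2.54 CPM in any library), Ascl2 (-0.99) and Lgr5 (-1.37). Over all 8 libraries these counts lay near the shares over all genes tested (10.6% higher and 13.4% lower), and the targets that passed went both ways. Without FS_CTR replicates 3 and 4 the targets' median was -0.24, with 1 higher and 5 lower. Ctnnb1 was then at 0.24 (unadjusted p of 0.116 in edgeR). Myc was at 0.21 without FS_CTR replicates 3 and 4 (unadjusted p of 0.101), and Ascl2 at -0.78 with the trend on length removed (0.0834). Lgr5, Ascl2 and Smoc2 mark stem cells. The 5 stem cell markers summed to between 22.3 and 70.1 CPM under FS_DSS and to between 63.5 and 167 CPM under FS_CTR. Of the 31 genes named from these lists, 20 kept an unadjusted p under 0.05 with each library left out, and Cdh13, Krt23, Krt4, Grhl3, Cdx2, Adam10, Src, Apc2, Myc, Ascl2 and Lgr5 lost it at least once. With FS_CTR replicates 3 and 4 both left out, 23 of the 31 kept it, and Cdh13, Vcl, Krt4, Grhl3, Cdx2, Adam10, Gsk3b and Myc lost it.

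**Figure D5:**
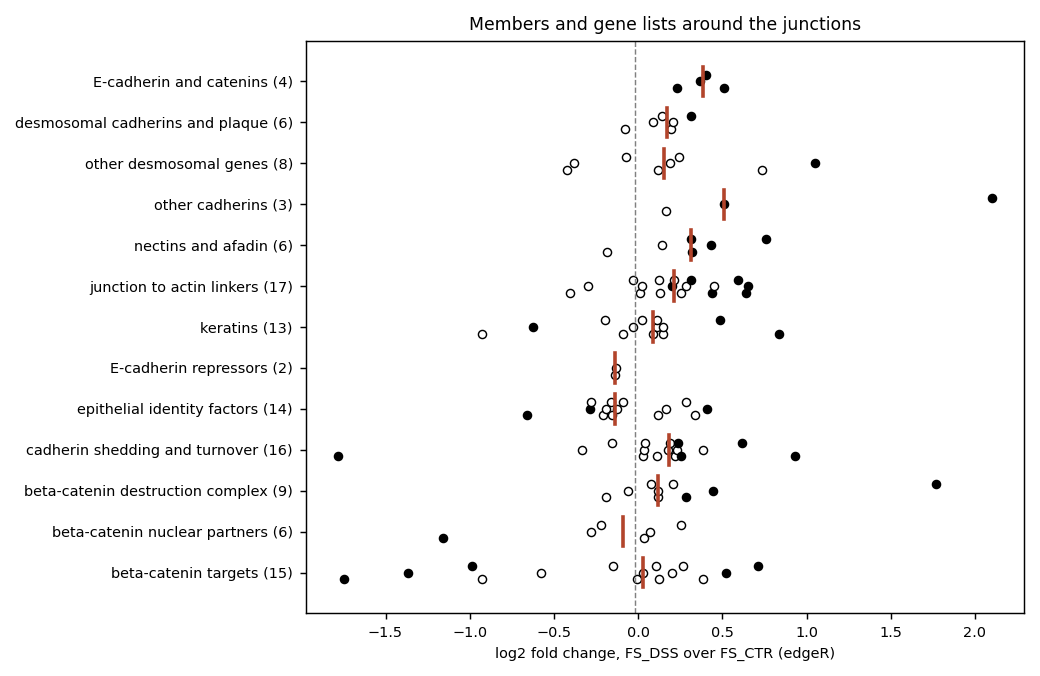
Log2 fold change of FS_DSS over FS_CTR for each tested gene of the members and of the lists around them, with the number tested in brackets. Filled points passed an unadjusted p under 0.05 in edgeR, red bars are list medians and the dashed line is the median of all genes (-0.021). All 4 points of E-cadherin and catenins are filled, against 1 of 6 among desmosomal genes. The targets of beta-catenin spread from -1.75 (Tnfrsf19, at most 2.54 CPM in any library) to 0.71. Of all genes tested, 10.6% were higher and 13.4% lower at that threshold.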

How the data were processed

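RNA from colon organoids was measured in 8 libraries, 4 under FS_DSS and 4 under FS_CTR, and every column of the table was assigned to a sample from its label, with 0 columns left over. Per gene symbol, the deposited table holds estimated counts. Salmon 1.10.1 was run by the authors on a GRCm39 transcriptome, and its output was imported with tximport. They were whole numbers as deposited, so no rounding was needed, and the authors' later normalization with DESeq2 1.36.0 is not part of them. The release of the transcriptome is not given in the sources used here. How a read is divided between genes with shared exons, and the share of counts taken by mitochondrially encoded genes, can both move the level of a gene.

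The main comparison was edgeR's quasi-likelihood test (edgeR 4.0.16 in R 4.3.3) of condition alone, after TMM scaling and the filterByExpr filter, which kept 12729 of 29234 genes, and with Benjamini-Hochberg adjustment over the genes kept. All 10 members were read from that fit. Standard errors and 95% intervals were derived from the F statistic and are approximate. CPM were computed from the deposited counts, and log2 CPM used a prior count of 2. Ratios between members were compared by exact permutation. The comparison was tested on simulated data with known changes. The members, the lists and the rules were chosen with earlier results of these data known. All members were named, and from each other list up to 4 genes per direction with the smallest unadjusted p under 0.05, and for marker lists the gene of highest mean CPM, apart from 1 marker list whose result is not reported here. For Cdh1 and Dsp the 5 genes with the most similar pattern were named.

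Both conditions carry replicate numbers 1 to 4. Deviations from the group means correlated at 0.352, 0.221, 0.154 and 0.226 between libraries of the same number, each over a cutoff of 0.1, and on that ground, taken from the data, same numbers were treated as pairs. No source says what they stand for, and FS_DSS replicate 4 correlated with FS_CTR replicate 3 at 0.188. The alternatives were other scalings, other filters on low counts, 2 other tests (DESeq2 1.42.0, and limma-voom of limma 3.58.1), blocking by replicate number, removal of the trend on transcript length, each library left out in turn and FS_CTR replicates 3 and 4 left out together. Transcript lengths and gene positions came from the GENCODE annotation of GRCm39, matched by symbol. Summaries used pandas 2.3.3, numpy 2.4.6 and scipy 1.17.1 under Python 3.11.15, and plots matplotlib 3.10.9.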

Additional observations from a re-analysis of the deposited data

Results flagged for a closer look

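In 6 of 124 sets of 4 libraries that were tested, the highest or lowest library stood further from the others than Dixon's 95% limit, and chance gives about 1 in 20. Both conditions gave such a value for Dsg2 and in both it was replicate 1. Dsg2 had 701 CPM in FS_DSS replicate 1, where the other 3 libraries lay between 574 and 596 CPM, and 578 CPM in FS_CTR replicate 1, where the others lay between 464 and 476 CPM. No other member gave one. Among genes of the other lists, Ascl2 was low in FS_DSS replicate 4 (1.55 CPM, others 4.09 to 4.47 CPM). Muc2, the gel-forming mucin of goblet cells, was high in FS_DSS replicate 3 (841 CPM, others 338 to 391 CPM). Krt23 was high in FS_CTR replicate 4 (68.6 CPM, others 47.5 to 50.1 CPM), and Gsk3b was high in FS_CTR replicate 1 (115 CPM, others 101 to 102 CPM).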

How the results depend on the processing

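Of the 10 members, Cdh1, Ctnnb1, Ctnna1, Ctnnd1, Dsg2, Dsc2 and Jup kept a positive log2 fold change under all 19 alternatives. Dsp and Pkp2 turned to -0.046 and -0.082 with the length trend removed and to -0.044 and -0.077 with the length trend removed and the replicate number as a block. Pkp3 turned to 0.021 and 0.023 under those settings, to 0.30 with library totals alone, to 0.12 without FS_CTR replicates 3 and 4, and ran from -0.15 to 0.018 (without FS_CTR replicate 4) with single libraries left out. The cause was not tested. The number of members past an unadjusted p under 0.05 ran from 1 (without FS_CTR replicate 3) to 5 (without FS_CTR replicate 1) with single libraries left out, and was 1 without FS_CTR replicates 3 and 4. The number past an adjusted p was 5 with DESeq2 and ran from 0 to 3 (Cdh1, Ctnnb1 and Ctnnd1, without FS_CTR replicate 1) with single libraries left out, and at the study thresholds it was 4 with library totals alone and ran from 0 to 1. The members' median was 0.55 with library totals alone, where all genes had a median of 0.31. The difference in the Ctnna1/Cdh1 ratio ran from -0.41 to -0.20 with single libraries left out, and its exact p over all 11 alternatives ran up to 0.6.

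With the replicate number as a block, Dsc2 (0.19) and Jup (0.21) joined the calls at an unadjusted p and no other member changed its call. Over all genes, 68 were higher and 179 lower at an adjusted p under 0.05 with the block, against 0 and 0 without it. DESeq2 called 641 higher and 792 lower, and edgeR 500 and 685 without FS_CTR replicate 1, 1 and 0 without FS_CTR replicate 2, 2 and 0 without FS_CTR replicate 4, 37 and 66 with the block and the length trend removed, and 1 and 1 with library totals alone. At an unadjusted p under 0.05, 1347 genes were higher and 1706 lower. Library totals alone gave 1580 and 178, a change in the share of lower genes that comes with the shift of the median of all genes, and 873 and 892 were higher without FS_CTR replicate 3 and FS_DSS replicate 4. At the study thresholds 326 were higher, against 1256 with library totals alone, 614 without FS_CTR replicate 1 and 178 without FS_DSS replicate 4.

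Among named genes, the values that turned sign were Cdx2 (0.071) and Car1 (0.062) with library totals alone, Gcg (-0.19), Pkp1 (-0.019), Tnnt2 (0.34) and Muc2 (-0.73) without FS_CTR replicates 3 and 4, and Muc2 (-0.13) and Csf1r (-0.079, and -0.093 with the block) with the length trend removed. With single libraries left out, Muc2 ran from -0.41 (without FS_DSS replicate 3) to 0.41 and Csf1r from -0.36 (without FS_DSS replicate 4) to 0.35. The intervals of Dsp, Pkp2 and Pkp3 include 0, and which size of difference these libraries could show was not tested.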

Other observations

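The 4 adherens junction genes together held 5748, 5248, 5148 and 5598 CPM in FS_DSS replicates 1 to 4, against 4966, 4142, 3593 and 3671 CPM in FS_CTR replicates 1 to 4. The groups of these sums did not overlap. The 6 desmosomal genes together held 3279, 2829, 2561 and 2675 CPM in FS_DSS replicates 1 to 4, against 2707, 2339, 2409 and 2515 CPM in FS_CTR replicates 1 to 4, and these groups overlapped. The 10 members took between 0.893% and 1.02% of all counts in FS_DSS libraries, against 0.907% and 0.738% in FS_CTR replicates 1 and 2 and 0.384% and 0.419% in FS_CTR replicates 3 and 4. The low share in the last pair stands beside their 38.7% and 33.3% of counts from mitochondrially encoded genes. Among the marker lists, colonocyte and goblet markers are of cell types that these junctions join. Colonocyte markers summed to between 3444 and 5827 CPM under FS_DSS and to between 4279 and 7513 CPM under FS_CTR, with Slc26a3 lower (-0.83, unadjusted p of 0.0307 in edgeR, and -0.75 with 0.120 without FS_CTR replicates 3 and 4). Lgals4, among the 8 epithelial markers, was lower too (-0.49, unadjusted p of 0.0252 in edgeR, and -0.22 with 0.128 without that pair). Goblet markers summed to between 1010 and 1918 CPM under FS_DSS and to between 719 and 1603 CPM under FS_CTR, with Fcgbp higher (0.49, unadjusted p of 0.0123 in edgeR, and 0.30 with 0.0941 without that pair). Fcgbp was the 1 of 5 tested goblet markers past the unadjusted threshold, beside 10.6% of all genes, and its groups overlapped. Tff3 was at 0.35, Clca1 at 0.11, Muc2 at 0.0074 and Spink4 at -0.83. Enteroendocrine markers summed to between 111 and 239 CPM under FS_DSS and to between 65.7 and 189 CPM under FS_CTR. Past that threshold were 0 of 6, and 4 were higher with the replicate number as a block, where 14.7% of all genes were. Their median log2 fold change was 0.51, and -0.018 without FS_CTR replicates 3 and 4, where 0 were higher. Smoc2 was lower in all 4 FS_DSS libraries than in any FS_CTR library (-2.57, unadjusted p of 9.17e-04 in edgeR), and Axin2, at -0.58 (unadjusted p of 0.114 in edgeR), passed the adjusted threshold with the block (adjusted p of 0.0419) and was at -0.32 without FS_CTR replicate 1.

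Markers of cells outside the epithelium stayed low. Endothelial markers summed to at most 1.04 CPM in FS_DSS libraries and 2.06 CPM in FS_CTR libraries, and immune markers to at most 17.2 CPM in FS_DSS libraries and 15.4 CPM in FS_CTR libraries. Among them Pecam1 (-0.86, unadjusted p of 0.0306 in edgeR) and Itgam (-1.05, 0.0255) were lower at levels of at most 1.32 and 1.48 CPM in any library, and were at -0.49 (0.210) and -1.28 (0.0154) without FS_CTR replicates 3 and 4. Vim, which mesenchymal cells express, had 5.73 ± 1.66 CPM under FS_DSS and 3.20 ± 0.610 CPM under FS_CTR (SD, n = 4 each), with a log2 fold change of 0.83 (unadjusted p of 0.0109 in edgeR), and 0.65 (0.0781) without FS_CTR replicates 3 and 4. Of the 3 fibroblast markers tested, Vim was the 1 with a positive value. Col1a1 was at -0.48 and Pdgfrb at -0.17, neither past the unadjusted threshold, and the median of the 3 was -0.17. Of the cardiomyocyte markers, which were included because desmosomes are also abundant in heart muscle, Myh6 and Actc1 were at 0 in all libraries, and Tnnt2 had 19.6 ± 5.34 CPM under FS_DSS and 33.4 ± 21.4 CPM under FS_CTR.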
